A study of Homo sapiens with 12 samples.

Results

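The genes described here are the replication-dependent histone genes of SJSA-1, an established human osteosarcoma cell line. Members were the protein-coding genes of GENCODE 44 with the symbols H1-1 to H1-6 or with a symbol beginning H2AC, H2BC, H3C or H4C. The rule gave 70 genes, namely 6 of the linker class H1, 17 of H2A, 19 of H2B, 13 of H3 and 15 of H4, and 66 of them had a row among the 59248 rows of the count table. H2AC18, H2AC19, H3C2 and H3C3 were not analysed here. Of the 66, 15 were at 0 in all 12 libraries, 51 had at least 1 count and 19 passed the filter on low counts.

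RNA was compared between 6 libraries of cells stably expressing RUNX2 shRNA-1 (sh1) and 6 libraries of cells stably expressing a scramble shRNA (shNC). Both lines carried the same lentiviral vector with a U6 promoter, EGFP and puromycin resistance, and they were kept as selected populations, with 1 shRNA against RUNX2 set against 1 control. RNA was enriched on oligo(dT) beads before the libraries were made. No source used here states whether the replicates were grown or infected separately, and p-values therefore reflect only library-to-library spread, which may be technical.

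RUNX2, a Runt-domain transcription factor needed for osteoblast differentiation and the target of the shRNA, was at 24.6 ± 1.95 CPM (counts scaled to a common library size with TMM) in sh1 and 39.8 ± 4.31 CPM in shNC (SD, n = 6 each), and its log2 fold change was -0.69. Library totals were 11239638 to 16346022 counts in sh1 and 15328312 to 19992974 counts in shNC, and the lowest was that of sh1 replicate 3. This library stood apart. Nuclear ribosomal RNA genes and their chromosome 21 region summed to 6695 CPM in it, against 12.2 to 75.6 CPM in the other 5 sh1 libraries and 12.6 to 31.6 CPM in shNC. Rows without an Ensembl identifier summed to 12200 CPM in sh1 replicate 3, against 4685 to 5275 CPM in the other sh1 libraries and 5045 to 5998 CPM in shNC. Results are therefore given with and without it. The cell line's own genes were present, with MDM2 at 1125 CPM in sh1 and 912 CPM in shNC and SPARC, the most abundant of the list, at 2286 CPM in sh1 and 1446 CPM in shNC. Listed epithelial markers (7 genes, CDH1 at 0 in all 12 libraries) summed to 424 to 583 CPM in sh1 and 377 to 469 CPM in shNC, nearly all of it KRT8 and KRT18. Leukocyte markers (7 genes) summed to 2.29 to 4.15 CPM in sh1 and 2.26 to 3.63 CPM in shNC, with PTPRC at no more than 0.135 CPM, and endothelial markers (6 genes) to 3.83 to 6.99 CPM in sh1 and 4.26 to 7.51 CPM in shNC.

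Core histones H2A, H2B, H3 and H4 form the octamer around which DNA is wrapped, and linker histone H1 binds the DNA that enters and leaves it. In human cells most of the copies that supply new chromatin during DNA replication lie in gene clusters, and their mRNAs are the metazoan mRNAs that normally lack a poly(A) tail. Their 3′ ends are made by cleavage after a conserved stem-loop, which is bound by the stem-loop binding protein SLBP, with the U7 small nuclear RNA and proteins shared with the polyadenylation machinery. Many histone genes can also give polyadenylated transcripts that run past the stem-loop, and selection on oligo(dT) favours these.

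Of the 70 members, 55 lie on chromosome 6, 13 on chromosome 1 and 1 each on chromosomes 12 and 21 (GRCh38). The stem-loop was searched on the sense strand of GRCh38 in the 200 bases after the last coding codon. The pattern was a stem of 6 base pairs with the first arm GGYYYT (Y for C or T), closed by a loop of 4 bases. Stems with other arms were not searched. It was found in 67 members, at 22 to 67 bases after the stop codon. Over all 20046 protein-coding genes it was found in 74 (0.369%), the 67 members included. Among the rest were the histone genes H2AX, H3-4 and H3-7. H2AC11, H2AC15 and H2BC12L held no match to these letters. All 15 H4 members had the arm GGCCCT, and the 52 matches in the other classes had the arm GGCTCT. The loop was TTTC in 50 of the 67. The stem-loops below are those of the members on which the results turn, 5′ to 3′, with the stem and loop in capitals and flanks in lower case.

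H1-2: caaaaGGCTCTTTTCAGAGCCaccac
H1-4: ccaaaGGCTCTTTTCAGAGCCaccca
H2AC6: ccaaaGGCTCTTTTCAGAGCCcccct
H2AC12: acaaaGGCTCTTTTCAGAGCCattct
H2BC4: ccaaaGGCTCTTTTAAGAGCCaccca
H2BC12: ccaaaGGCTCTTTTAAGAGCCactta
H3C10: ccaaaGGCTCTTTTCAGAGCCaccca
H4C8: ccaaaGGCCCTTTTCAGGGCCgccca
H4C9: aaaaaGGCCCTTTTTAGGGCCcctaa

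These lie at chr6:26055739-26055764 (H1-2, minus strand), chr6:26157090-26157115 (H1-4, plus), chr6:26124664-26124689 (H2AC6, plus), chr6:27147541-27147566 (H2AC12, plus), chr6:26123467-26123492 (H2BC4, minus), chr6:27146361-27146386 (H2BC12, minus), chr6:27810511-27810536 (H3C10, plus), chr6:26285126-26285151 (H4C8, minus) and chr6:27139649-27139674 (H4C9, plus). The capitals of H1-2, H1-4, H2AC6, H2AC12 and H3C10 are the same run of bases, while H2BC4 and H2BC12 have the loop TTTA, found in 9 of the 67.

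All 5 classes had a higher summed level in sh1 than in shNC. The 66 rows together summed to 164.6 ± 23.5 CPM in sh1 and 94.6 ± 9.71 CPM in shNC (SD, n = 6 each), a ratio of 1.74, or 1.65 without sh1 replicate 3. In bulk RNA, more cells that express a gene and more RNA per cell cannot be told apart.

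The H1 rows summed to 21.4 to 25.8 CPM in 5 sh1 libraries and 35.7 CPM in sh1 replicate 3, against 12.2 to 17.7 CPM in shNC. The H2A rows summed to 39.8 to 50.9 CPM in the 5 sh1 libraries and 54.9 CPM in replicate 3, against 23.6 to 29.0 CPM in shNC. The H2B rows summed to 63.3 to 78.3 CPM in the 5 sh1 libraries and 90.0 CPM in replicate 3, against 35.4 to 47.4 CPM in shNC. In these 3 classes every sh1 library was above every shNC library.

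The H3 rows, the least abundant class, summed to 2.08 to 3.07 CPM in the 5 sh1 libraries and 6.45 CPM in replicate 3, against 0.789 to 1.79 CPM in shNC. The H4 rows summed to 15.5 to 17.9 CPM in the 5 sh1 libraries and 19.4 CPM in replicate 3, against 7.31 to 15.7 CPM in shNC. The shNC value of 15.7 was replicate 1, above the lowest sh1 library, so the H4 sums overlapped while the H3 sums did not. The ratio of group means was 1.72 for H1, 1.73 for H2A, 1.74 for H2B, 2.60 for H3 and 1.69 for H4, and without sh1 replicate 3 it was 1.58 for H1, 1.66 for H2A, 1.66 for H2B, 2.02 for H3 and 1.64 for H4. The H1 sum was mostly H1-2, with group means of 21.8 of 25.5 CPM in sh1 and 14.2 of 14.8 CPM in shNC. The H3 sum was mostly H3C10, with 2.61 of 3.05 CPM in sh1 and 1.07 of 1.17 CPM in shNC. Within the histone total, H1, H2A, H2B and H4 had nearly equal shares in both groups. H2B made up 44.7% ± 1.3 in sh1 and 44.6% ± 1.6 in shNC, and H2A 27.7% ± 0.98 in sh1 and 27.9% ± 1.6 in shNC. H1 made up 15.4% ± 1.1 in sh1 and 15.7% ± 0.84 in shNC, and H4 10.4% ± 0.66 in sh1 and 10.6% ± 2.3 in shNC (SD, n = 6 each). The H3 share was 1.79% ± 0.69 in sh1, or 1.52% ± 0.24 without replicate 3, and 1.23% ± 0.28 in shNC.

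**Figure D1:**
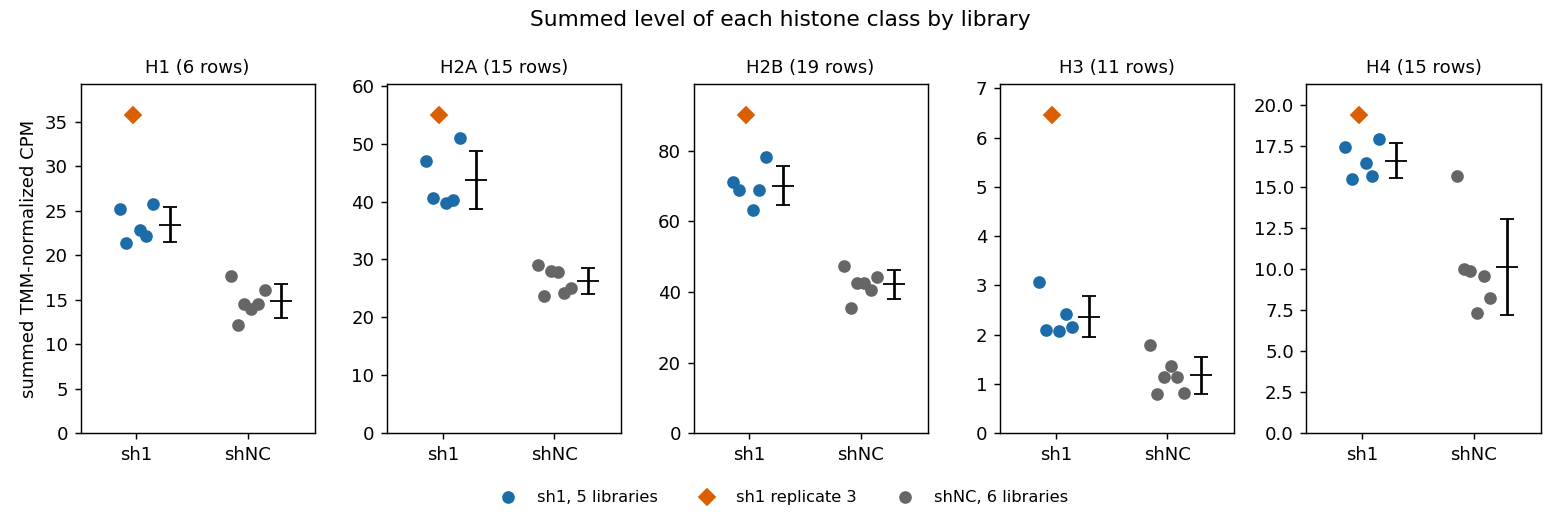
Summed TMM-normalized CPM of the rows of each histone class (vertical axes, linear, from 0) in each library, with sh1 on the left and shNC on the right. Diamonds are sh1 replicate 3, the horizontal marks with bars are the mean and SD of the other 5 sh1 libraries and of the 6 shNC libraries, and sh1 libraries lie above all shNC libraries in H1, H2A, H2B and H3, while in H4 shNC replicate 1 (15.7 CPM) lies among the sh1 libraries.

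Of the 19 members tested with edgeR's quasi-likelihood test over 16489 rows, 16 were higher in sh1 at an adjusted p (Benjamini-Hochberg) under 0.05, where 12.8% of all tested rows were higher. None was lower, where 13.3% of tested rows were, and at an unadjusted p under 0.05 the count of lower members was also 0, as was the count with DESeq2. Past a 2-fold change as well, 12 members were higher, against 1.2% of tested rows, and 0 were lower, against 0.885%. In 13 members every sh1 library was above every shNC library, which held for 5.84% of tested rows, and in none was every sh1 library below, which held for 6.08%. All 19 had a positive log2 fold change, with a median of 1.17, beside a median of -0.0035 over all tested rows. For 4 of the 19 (H1-4, H2AC13, H2BC6 and H4C16) the shNC libraries alone would not have passed the filter, which favours members that are higher in sh1. H2AC13 reached the filter's count level in 5 sh1 and 2 shNC libraries. Of the 15 that would have passed on the shNC libraries alone, 12 were higher, 8 of them past 2-fold. Without sh1 replicate 3, 15 of 19 were higher, where 13.1% of 16722 tested rows were, and 11 of these were past 2-fold, where 1.3% of rows were. Again none was lower, where 11.9% of rows were, or 0.975% past 2-fold.

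**Figure D2:**
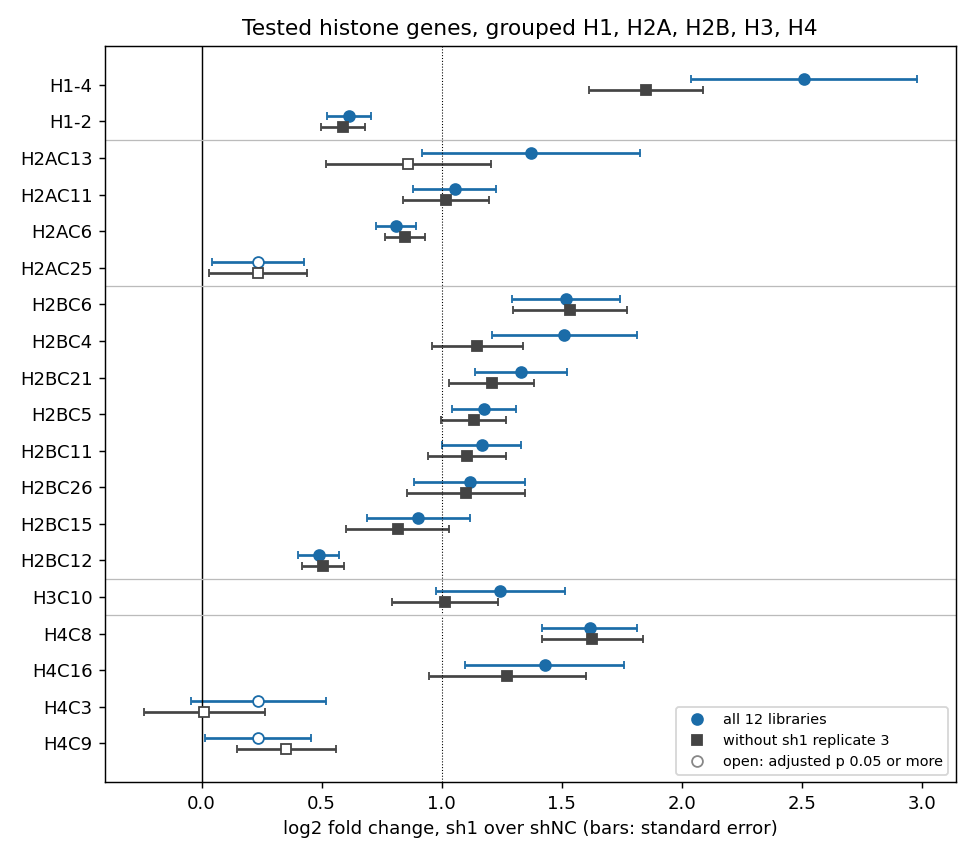
Log2 fold change of sh1 over shNC (horizontal axis, dotted line at a 2-fold change) with its standard error for the 19 tested members, grouped by class and ordered by size within a class. Circles use all 12 libraries and squares leave out sh1 replicate 3, open symbols have an adjusted p of 0.05 or more, and the largest shift between the circle and the square is that of H1-4 (2.51 and 1.85).

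Linker histones were represented by a pair of tested genes. H1-2, the linker variant with the highest level here, was at 19.1 (lowest), 21.5 (median) and 24.6 CPM (highest) in sh1, against 11.8, 13.8 and 16.9 CPM in shNC. The groups did not overlap, and the log2 fold change was 0.61 (SE 0.0906, edgeR adjusted p = 8.3e-05). H1-4, another somatic linker variant, was at 1.84 (lowest), 2.13 (median) and 11 CPM (highest) in sh1, against 0.377, 0.606 and 0.900 CPM in shNC. Its highest value was that of sh1 replicate 3, and the remaining sh1 libraries reached 3.14 CPM. The log2 fold change of H1-4 was 2.51 (SE 0.471, edgeR adjusted p = 0.00075), the largest of the 19, and 1.85 (SE 0.237, edgeR adjusted p = 2.5e-05) without sh1 replicate 3. On the linear scale the fold was 5.69 with and 3.61 without that library. H1-1, H1-5 and the testis variant H1-6 had 1 to 3 counts over all libraries, and H1-3 had 0.

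Among the H2A genes, which encode the core histone that pairs with H2B, H2AC6 was the most abundant. It was at 25.6 (lowest), 28.0 (median) and 33.5 CPM (highest) in sh1, against 14.1, 17.1 and 18.4 CPM in shNC. The lowest sh1 value was that of replicate 3, and no sh1 library overlapped shNC. The log2 fold change was 0.81 (SE 0.0836, edgeR adjusted p = 2.2e-06), the smallest adjusted p of the 19. H2AC11 was at 3.70, 4.99 and 5.66 CPM in sh1 and at 1.58, 2.38 and 3.30 CPM in shNC, with a log2 fold change of 1.05.

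H2AC13 and H2AC25 were less firm. H2AC13 was at 0.446, 0.978 and 3.80 CPM in sh1 and at 0.252, 0.501 and 0.841 CPM in shNC, so that the groups overlapped. Its log2 fold change of 1.37 (edgeR adjusted p = 0.033) became 0.86 (edgeR adjusted p = 0.078) without sh1 replicate 3, and the call was also lost without sh1 replicate 6 or shNC replicate 2, 5 or 6. Only 19.9% of the 100-base windows of its coding sequence were found in no other histone gene or pseudogene, so its reads may belong in part to other genes. H2AC25, at 4.47, 7.89 and 10.3 CPM in sh1 and 3.54, 6.67 and 7.80 CPM in shNC, did not pass the test (log2 fold change 0.24, edgeR adjusted p = 0.39).

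All 8 tested H2B genes were higher in sh1. H2BC12 was the most abundant member of any class, at 32.4 (lowest), 37.2 (median) and 41.1 CPM (highest) in sh1, against 22.6, 25.5 and 30.4 CPM in shNC. The groups did not overlap, although its log2 fold change of 0.49 (SE 0.0835, edgeR adjusted p = 0.00034) was the smallest among those that passed. Per length it was at 96.4 ± 9.51 FPKM (fragments scaled by gene length and library size) in sh1 and 67.9 ± 7.22 FPKM in shNC (SD, n = 6 each), ahead of H1-2 at 34.0 FPKM in sh1 and 21.9 FPKM in shNC, and of H2AC6 at 17.3 FPKM in sh1 and 9.74 FPKM in shNC. The counted length was 381 bases for H2BC12, 642 for H1-2 and 1668 for H2AC6, and the order by FPKM depends on it. By mean CPM H2AC6 was above H1-2, at 28.7 against 21.8 CPM in sh1 and 16.4 against 14.2 CPM in shNC. Of the coding windows of H2BC12, 72.4% were found in no other histone gene or pseudogene.

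H2BC5 was at 7.90, 9.98 and 12.5 CPM in sh1, against 3.71, 4.63 and 5.41 CPM in shNC, with a log2 fold change of 1.18 (SE 0.134, edgeR adjusted p = 6.3e-06). H2BC21, in the chromosome 1 cluster, was at 3.99, 6.26 and 9.72 CPM in sh1, against 1.79, 2.69 and 3.15 CPM in shNC, with a log2 fold change of 1.33. Neither gene overlapped between the groups. H2BC11 was at 4.53, 5.53 and 7.07 CPM in sh1, against 1.42, 2.57 and 2.94 CPM in shNC (log2 fold change 1.17), and H2BC6 was at 1.48, 1.80 and 2.16 CPM in sh1, against 0.316, 0.616 and 0.901 CPM in shNC (1.52), again without overlap. H2BC26 was at 1.59, 2.52 and 2.84 CPM in sh1, against 0.684, 1.02 and 1.68 CPM in shNC (1.12), and its groups overlapped, as did those of H2BC15 (0.90).

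H2BC4 was at 2.51, 3.07 and 8.92 CPM in sh1, against 0.947, 1.29 and 1.80 CPM in shNC. As for H1-4, the highest value was that of sh1 replicate 3, and the other sh1 libraries reached 3.33 CPM. Its log2 fold change was 1.51 (SE 0.301, edgeR adjusted p = 0.0013), and 1.15 without that library. By annotated gene span, introns included, H2BC4 overlaps H4C3 and HFE on the opposite strand and H1-6 on its own strand. By the same measure H2BC5 and H2BC6 overlap an opposite-strand gene, and H2BC5, H2BC26 and H2AC25 a same-strand gene. Whether the counted bases overlap was not checked. Strand is not kept by the kit used, and reads from overlapping partners are therefore uncertain.

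H3 had a single tested gene. H3C10 was at 1.76, 2.13 and 4.86 CPM in sh1, against 0.629, 1.12 and 1.61 CPM in shNC, without overlap. The log2 fold change was 1.25 (SE 0.269, edgeR adjusted p = 0.0023), and 1.01 without sh1 replicate 3, which gave the highest value. H3C1 and H3C13, next in level, had 37 and 2 counts over all libraries. Of the other 10 H3 rows, 4 were at 0 throughout.

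Most H4 genes encode the same protein, and the 4 tested ones split in the test. H4C8 was at 3.95, 5.04 and 7.84 CPM in sh1, against 1.19, 1.71 and 2.65 CPM in shNC, with a log2 fold change of 1.62 (SE 0.199, edgeR adjusted p = 1.3e-05). H4C16, the member on chromosome 12, was at 0.857, 1.32 and 2.21 CPM in sh1, against 0.158, 0.474 and 0.851 CPM in shNC (log2 fold change 1.43, edgeR adjusted p = 0.0039). In neither did the groups overlap. H4C9 was at 3.80, 6.90 and 8.63 CPM in sh1, against 3.50, 5.13 and 10.5 CPM in shNC, and its highest value of all was that of shNC replicate 1. It did not pass (log2 fold change 0.24, edgeR adjusted p = 0.46), and without shNC replicate 1 the log2 fold change was 0.49 with an edgeR adjusted p of 0.042. H4C3, at 0.956, 1.51 and 3.18 CPM in sh1 and 0.880, 1.37 and 1.95 CPM in shNC, did not pass either (0.24, and 0.01 without sh1 replicate 3). Whether H4C8 and H4C9 differ in their response was not tested.

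**Figure D3:**
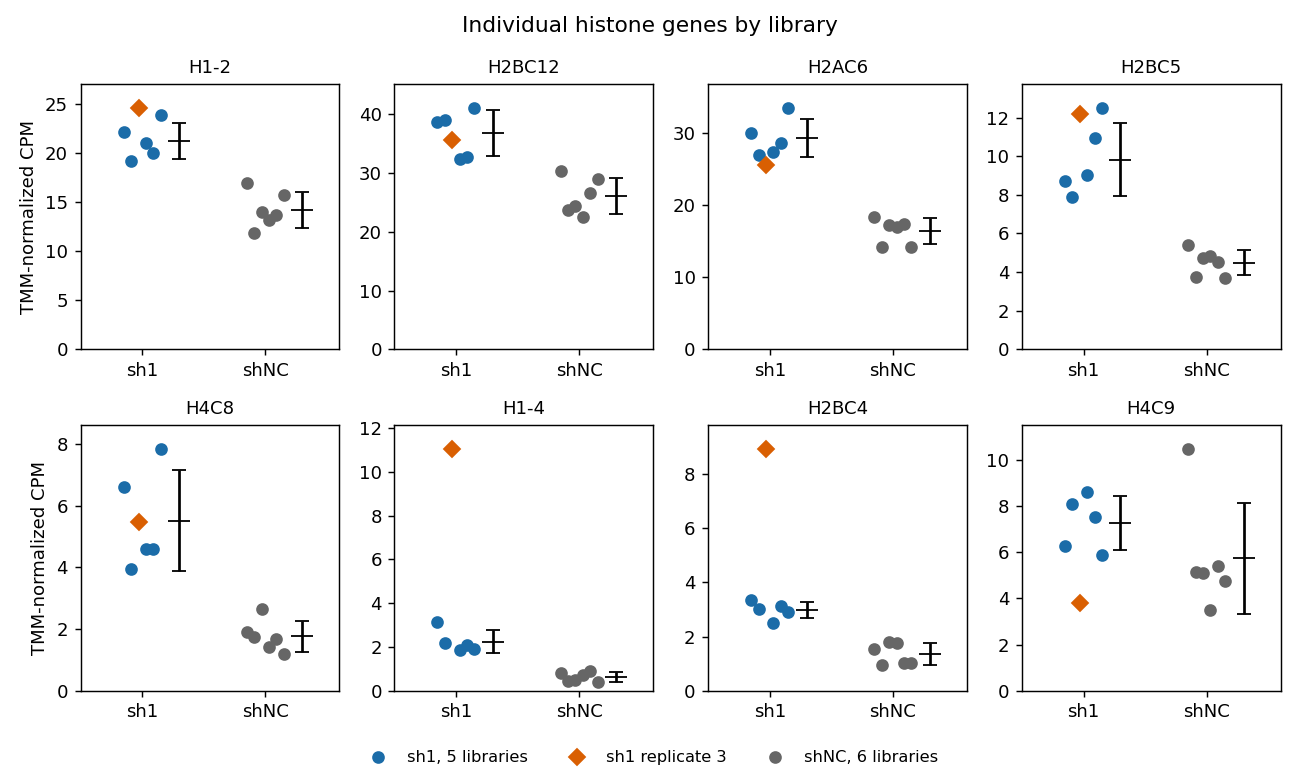
TMM-normalized CPM (vertical axes, linear, from 0) of 8 histone genes in each library, sh1 on the left and shNC on the right, with diamonds for sh1 replicate 3 and marks for the mean and SD of the other 5 sh1 libraries and of the 6 shNC libraries. H1-2, H2BC12, H2AC6, H2BC5 and H4C8 have sh1 replicate 3 within or near the other sh1 libraries, H1-4 and H2BC4 have it far above them (11 and 8.92 CPM), and H4C9 has shNC replicate 1 at 10.5 CPM above all others.

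Members without a count or with few counts were the larger part. All 15 genes at 0 lie on chromosome 6, among them H1-3, H3C4, H3C7, H4C4 and H4C6. In 14 of them every 100-base coding window was found in no other histone gene or pseudogene. A count of 0 allows up to 3 counts in a library of 11239638 to 19992974. A further 12 members had 1 to 9 counts over all libraries. When all 51 members with a count were tested without a filter, 23 were higher, where 5.18% of 40131 rows were, and 0 were lower, where 5.15% were. At an unadjusted p under 0.05 that fit had 1 lower member, H2BC17 (adjusted p = 0.15). The 7 members that only this fit called (H2AC4, H2AC12, H2AC20, H2AC21, H3C1, H4C2 and H4C5) were not called in the same fit without sh1 replicate 3, in which 15 of 51 were higher, where 5.27% of 39823 rows were, and 0 were lower, where 5.29% were.

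sh1 replicate 3 was the highest of the 12 libraries for 30 of the 51 members with a count, where 11.3% of all rows with a count had their highest value there. These members differed in a feature that the rule for members did not use, the gene model on which reads were counted. The counted length, obtained from counts and FPKM, was that of the coding sequence plus 0 to 126 bases in 26 members (short models, 17 of them with coding bases only) and that of the coding sequence plus 453 to 5096 bases in 25 members (extended models). No member fell in between. This division was seen after the values were known and is given as a description.

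Among short models, sh1 replicate 3 was the highest library in 21 of 26, and among extended models in 9 of 25. H2AC12 had 33 counts in sh1 replicate 3, against 0 to 6 in the other sh1 libraries and 0 to 3 in shNC. H2AC4 had 22 counts in it, against 0 to 3 in the other sh1 libraries and 0 to 1 in shNC. H2BC14 had 22 counts in it, against 0 to 3 in the other sh1 libraries and 0 to 4 in shNC, and H3C1 had 17, against 1 to 5 in the other sh1 libraries and 0 to 3 in shNC. These are genes that barely gave a count elsewhere.

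In the 14 short models with at least 10 counts over the other 5 sh1 libraries, the level in sh1 replicate 3 was 5.11 times their mean at the median, with a range of 0.970 to 19.2, and it was at least 2-fold in 11. In the 19 extended models with as many counts the median ratio was 1.24, with a range of 0.522 to 2.99. It was at least 2-fold in 3 of these 19 (H2BC4, H3C10 and H4C5). A ratio of 2 or more was found in 3.26% of all 23456 rows with at least 10 counts over those 5 libraries. Low counts spread more, and among the 10390 rows with 10 to 174 counts, the range of the short models other than H1-2 and H2BC12, it was found in 7.14%, beside 11 of these 12 short models. H1-2 and H2BC12 were set apart after their values were seen, so the share of 11 of 12 is a description of 1 library. These 2 most abundant short models were near 1. H1-2 had a ratio of 1.16 and H2BC12 a ratio of 0.970. H2AC12, whose stem and loop above are the same letters as those of H1-2, had a ratio of 19.2. Whether the ratio goes with the stem-loop was not tested.

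**Figure D4:**
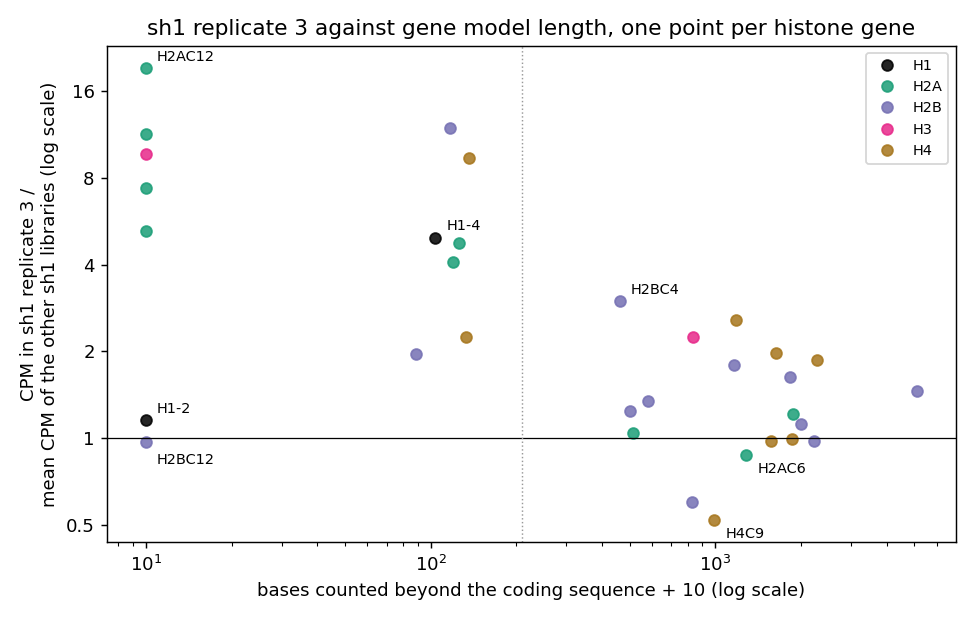
Level in sh1 replicate 3 divided by the mean of the other 5 sh1 libraries (vertical axis, log scale, line at 1) against the bases counted beyond the coding sequence plus 10 (horizontal axis, log scale), with a point for each of 33 members, coloured by class. Points left of the dotted line are short models (median 5.11) and points right of it are extended models (median 1.24), and H1-2 and H2BC12 lie near 1 at the left.

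The 24 short models other than H1-2 and H2BC12 summed to 40.0 CPM in sh1 replicate 3, against 5.16 to 8.89 CPM in the other sh1 libraries and 2.70 to 5.82 CPM in shNC. The ratio of group means of this sum was 3.02 with sh1 replicate 3 and 1.69 without it. The 25 extended models summed to 106 CPM in sh1 replicate 3, 84.2 to 102 CPM in the other sh1 libraries and 42.6 to 58.4 CPM in shNC, with a ratio of 1.87 and 1.82 without that library. The difference between sh1 and shNC in extended models was thus nearly the same without sh1 replicate 3, and 12 of 14 tested extended models were higher with and without it.

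Small RNAs that normally lack a poly(A) tail were also high in sh1 replicate 3, though 1 gene carried most of their level. The 35 genes listed, 12 of them at 0 in every library, summed to 169 CPM in it, against 39.3 to 86.7 CPM in the other sh1 libraries. RN7SL2, an RNA of the signal recognition particle, made up 119 CPM of that sum in sh1 replicate 3 and 29.0 to 76.4 CPM in the other sh1 libraries, against 32.2 to 204 CPM in shNC. The other 34 genes summed to 49.8 CPM in sh1 replicate 3 and 9.69 to 10.3 CPM in the other sh1 libraries, against 6.99 to 14.8 CPM in shNC. SNORD17, a small nucleolar RNA, went the other way and was at 3.89 CPM in sh1 replicate 3, the lowest of the sh1 libraries. The highest shNC sum of all 35 genes, 219 CPM, was that of replicate 1, the library that was also highest for H4C9, and RN7SL2 alone made up 204 CPM of it. In shNC replicate 1 the short models other than H1-2 and H2BC12 were at 5.82 CPM, the highest of the shNC libraries. The part of carried-over RNA without a poly(A) tail in the histone levels was not tested.

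**Figure D5:**
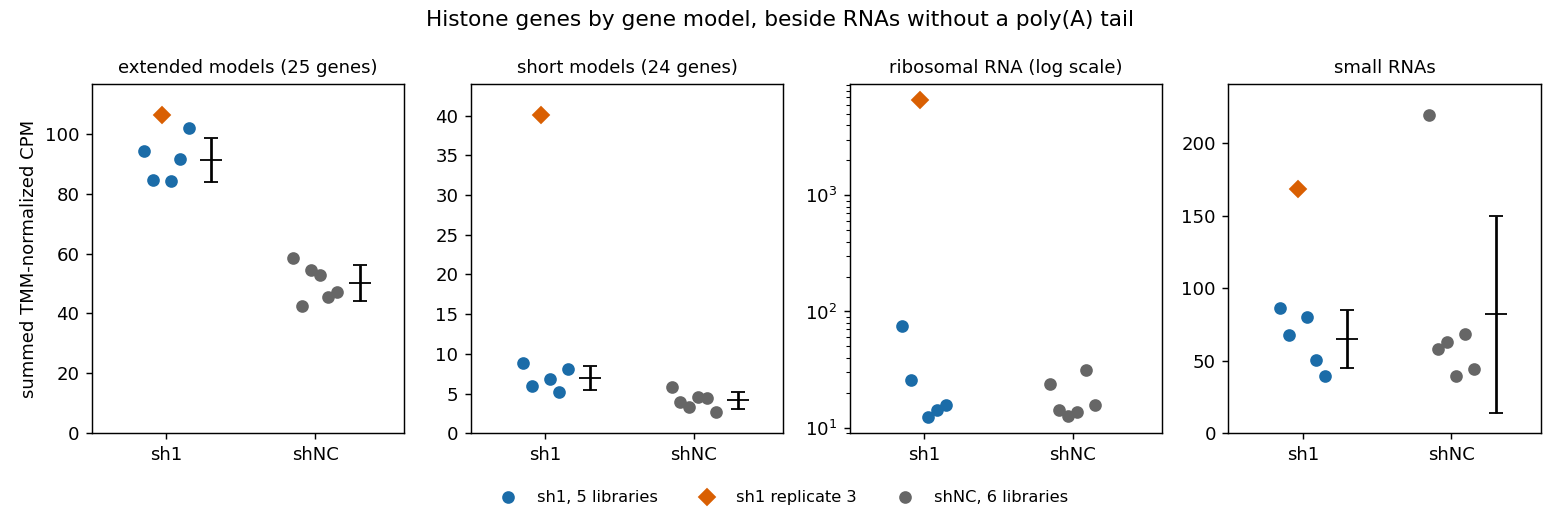
Summed TMM-normalized CPM by library of the 25 extended models, of the 24 short models without H1-2 and H2BC12, of nuclear ribosomal RNA genes with their chromosome 21 region (log scale, most of it ENSG00000281181) and of 35 small RNAs without a poly(A) tail (most of it RN7SL2), with sh1 left and shNC right and diamonds for sh1 replicate 3. Marks in the linear panels give the mean and SD of the other 5 sh1 libraries and of the 6 shNC libraries, and sh1 replicate 3 is far above the other sh1 libraries in the last 3 panels (40.0, 6695 and 169 CPM) but near them in the first (106 CPM).

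Of 25 tested genes that make and process histone mRNA, 2 were higher and 4 lower in sh1, counts near the background of 12.8% higher and 13.3% lower over all tested rows. Without sh1 replicate 3, 1 was higher and 2 were lower. ERI1, an exonuclease that trims the histone mRNA end, was at 56.9 to 65.4 CPM in sh1 and 74.9 to 90.8 CPM in shNC (log2 fold change -0.45, edgeR adjusted p = 1.4e-05). CPSF2, a subunit of the cleavage complex, was at 154 to 177 CPM in sh1 and 140 to 160 CPM in shNC (0.17, edgeR adjusted p = 0.012). SNRPD3, a Sm protein of small nuclear ribonucleoproteins, was lower in sh1 (-0.32, edgeR adjusted p = 0.010). NCBP2, a cap-binding protein and the most abundant of the list, was at 262 to 291 CPM in sh1 and 286 to 314 CPM in shNC and did not pass (-0.10, edgeR adjusted p = 0.11). SLBP itself, at 64.3 to 73.9 CPM in sh1 and 58.5 to 97.6 CPM in shNC, did not pass (-0.20, edgeR adjusted p = 0.11), nor did NPAT, the coactivator of histone loci (0.09, edgeR adjusted p = 0.35).

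Of 40 S phase genes, 0 were higher and 16 lower in sh1, where the background was 12.8% higher and 13.3% lower, and 14 were lower without sh1 replicate 3. With edgeR, MCM5, a subunit of the replicative helicase, was at 64.1 to 77.2 CPM in sh1 and 81.7 to 114 CPM in shNC (log2 fold change -0.49, adjusted p = 0.00022). CDC45 and GINS4, partners of that helicase, were also lower (-0.38 and -0.39, edgeR adjusted p = 0.00025 and 0.0011). MCM7, another helicase subunit and the most abundant of the list, was at 268 to 331 CPM in sh1 and 292 to 377 CPM in shNC and did not pass (-0.19, edgeR adjusted p = 0.051). The median log2 fold change of the S phase list was -0.19, beside 1.17 for the 19 tested histone members. Of these members, 4 passed the filter only with the sh1 libraries, which favours a higher histone median. Of 20 genes of G2 and M phase, 1 was higher and 3 lower, beside 12.8% higher and 13.3% lower over all tested rows. The higher gene was CENPF, at 445 to 507 CPM in sh1 and 344 to 477 CPM in shNC (0.28, edgeR adjusted p = 0.0056). Among the lower were TPX2 and CDK1. TPX2, a spindle protein, was at 287 to 308 CPM in sh1 and 410 to 540 CPM in shNC, and CDK1, the mitotic kinase, was at 137 to 161 CPM in sh1 and 176 to 246 CPM in shNC.

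Replication-independent and other histone genes were tested in 11 of 29 listed cases, and 2 were higher and 1 lower, beside 12.8% higher and 13.3% lower over all tested rows. H2AZ1, a variant of H2A found at promoters, was at 166 to 204 CPM in sh1 and 226 to 324 CPM in shNC (log2 fold change -0.60, edgeR adjusted p = 4.6e-05). MACROH2A2, an H2A variant with a macro domain, was higher in sh1 (0.56, edgeR adjusted p = 0.00048), as was H2AJ (0.47, edgeR adjusted p = 0.0027). H3-3B, which encodes the replacement histone H3.3 and was the most abundant of the list, did not pass, at 474 to 549 CPM in sh1 and 530 to 597 CPM in shNC. H2AX, which has a stem-loop of the kind searched and also gives polyadenylated mRNA, was at 27.2 to 49.2 CPM in sh1 and 24.2 to 60.5 CPM in shNC, with a log2 fold change of -0.12 (edgeR adjusted p = 0.68). Of 19 tested histone chaperones and importers, 1 was higher and 3 were lower, again near that background. ATRX, a chromatin remodeller, was higher in sh1 (0.20, edgeR adjusted p = 0.016), and lower were NAP1L4, a nucleosome assembly protein (-0.16, edgeR adjusted p = 0.0093), and RBBP4, a histone-binding subunit of chromatin assembly factor 1 (-0.22, edgeR adjusted p = 0.0091). NAP1L1, the most abundant of that list, was at 1055 to 1232 CPM in sh1 and 1067 to 1393 CPM in shNC and did not pass (-0.09, edgeR adjusted p = 0.32).

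The members' promoters shared letters that most promoters lack. RefSeq (GRCh38.p14) gave a window of 250 bases before to 50 after the start for 64 of the 70 members, and motifs were searched on both strands and compared with 27305 promoters of the same length. TATAAA was found in 65.6% of members and 12% of all promoters. CCAAT was found in 84.4% of members and 35.7% of all promoters, in every H1, H2A, H2B and H3 window and in 3 of 13 H4 windows. ATTTGCAT, the octamer bound by POU2F1, was found in 40.6% of members and 1.8% of all promoters, and it lay in 14 of 18 H2B and 11 of 16 H2A windows, in 1 of 11 H3 windows and in none of the H1 and H4 windows. TGTGGT or TGCGGT, core letters of RUNX sites, was found in 20.3% of members and 19.4% of all promoters. Some H2A and H2B genes lie head to head on opposite strands, such as H2BC4 and H2AC6, and their windows share bases. The same site can then be counted for both genes, so these shares are not counts of separate sites. The matches are descriptions of sequence in these windows and not of binding.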

How the data were processed

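Total RNA of 12 SJSA-1 libraries was enriched on oligo(dT) beads and sequenced as read pairs. The authors aligned clean reads to GRCh38 (Ensembl 87) with HISAT2 and counted them with featureCounts. The deposited tables hold raw counts per gene, and FPKM values that the authors calculated from those counts. The sources used here give neither the versions of HISAT2 and featureCounts nor count settings, such as the treatment of reads with several hits. Deposited counts divided by a size factor (a signal) were not used.

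Members were matched by Ensembl identifier to GENCODE 44 (58207 of 58676 identifiers matched, and 572 rows without one stayed in library totals). Counted gene length was count divided by FPKM and library total. Counts were tested over all rows with edgeR 4.0.16 in R 4.3.3 (filterByExpr, TMM, glmQLFit, glmQLFTest), with Benjamini-Hochberg adjustment. CPM values are TMM-scaled. Class sums have no test. Values per gene were given for the 6 linker genes, the 3 most abundant members of each core class, members past both thresholds with or without sh1 replicate 3, and RUNX2. The rule also names up to 3 genes with the smallest p and the most abundant gene of each list, of which marker genes, cell cycle genes and RNAs without a poly(A) tail are given in part. Other genes were named after their values were seen. Self-tests on simulated counts were run. Alternatives were RLE, upper quartile and unscaled totals, 3 other filters, robust dispersion, DESeq2 1.42.0, limma 3.58.1 on log2(FPKM + 1) and on log2(FPKM + 0.1), a block for replicate number and leaving out each library, while the fit without filter and sh1 replicate 3 was added after the data had been seen. Members and lists were chosen with earlier results of these data known.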

Additional observations from a re-analysis of the deposited data

Results flagged for a closer look

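In groups of 6 libraries, the highest or lowest library was compared with its nearest neighbour by the ratio of that gap to the range, against Dixon's critical value for 6. Of 56 checks 13 exceeded it, where chance would give about 1 in 20, or 2.8, if the checks were independent. They were not, since sums hold genes that were also checked and many checks share a library. The sum of short gene models was also defined after values were seen. The excess over 2.8 is therefore a description.

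sh1 replicate 3 stood above the other sh1 libraries for H1-4 (11 CPM, others 1.84 to 3.14), H2BC4 (8.92 CPM, others 2.51 to 3.33) and H2AC13 (3.80 CPM, others 0.446 to 1.55). It did so too for the summed H1 class (35.7 CPM, others 21.4 to 25.8), the summed H3 class (6.45 CPM, others 2.08 to 3.07) and the summed short gene models (100 CPM, others 57.9 to 73.0). In the same library nuclear ribosomal RNA genes with their chromosome 21 region summed to 6690 CPM (others 12.2 to 75.6), of which ENSG00000281181 made up 6079 CPM. Small RNAs without a poly(A) tail summed to 169 CPM there (others 39.3 to 86.7), of which RN7SL2 made up 119 CPM. Rows without an Ensembl identifier summed to 12200 CPM (others 4680 to 5280).

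shNC replicate 1 stood above the other shNC libraries for H4C9 (10.5 CPM, others 3.50 to 5.40), for the summed H4 class (15.7 CPM, others 7.31 to 10), which holds H4C9, and for the small RNAs without a poly(A) tail (219 CPM, others 39.2 to 68.2), of which RN7SL2 alone made up 204 CPM. shNC replicate 2 stood below the other shNC libraries for H2BC11 (1.42 CPM, others 2.46 to 2.94). None of these patterns was traced to a cause.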

How the results depend on the processing

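The count of members higher in sh1 was 16 and ranged over 12 to 23 in 24 alternatives, and no member was lower in any of them. Leaving out each library gave 15 to 17 higher members, and 10 to 13 past a 2-fold change beside 12 with all libraries. Past 2-fold, the count was 19 without a filter on low counts, where 51 members were tested, and 3 with limma on log2(FPKM + 1), a scale on which the added 1 understates changes of low genes. DESeq2 called 20 of 32 members. With at least 10 counts in every library, 12 of 15 were higher and 8 past 2-fold. The replicate numbers did not pair the libraries (correlation of same-numbered libraries -0.162 to 0.033), and with the replicate number as a block 16 members were higher and 12 past 2-fold. The 18 tested members given with per-library values, which leave out H2BC15, were compared in each alternative that tested them. Of 428 comparisons, 418 kept their direction and call. H2AC13 lost its call in 8, and H4C9 gained a call in 1. H4C3, not called, was at -0.001 without a filter and without sh1 replicate 3, where it was 0.237 with all libraries. Class ratios stayed within the spread between libraries in all alternatives run. Low counts limit the report: 12 members had 1 to 9 counts in all and 15 had none, and near-identical coding sequences can share reads.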
